A study of Mus musculus with 7 samples.

Results

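Transcripts of the distal nephron and collecting duct were followed through RNA sequencing libraries of bead-isolated kidney endothelial cells. The members were 38 listed genes of the thick ascending limb, the distal convoluted and connecting tubule, the principal cells and the intercalated cells, with 5 genes shared by several of these segments. Of the 38, 37 had an entry among the 26558 named genes of the deposited table. Gata2os had no entry under that symbol and has no value here, and its sense partner Gata2 is given with the principal cell genes.

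The isolates came from kidneys of 3-month-old male C57BL/6 mice and were taken with magnetic beads carrying an antibody to Cd31, a surface protein of endothelial cells, with RNA extracted straight away and no culture step. The 3 wildtype libraries came from mice carrying the Hoxb7-Cre-GFP transgene alone, and the 4 mutant libraries from mice carrying the same transgene and loxP-flanked Vhlh on both alleles. Hoxb7 regulatory sequence drives this Cre in the ureteric bud and in the collecting duct that grows from it, so the deletion is directed at tubule cells and both groups carry the Cre. Nothing in the labels ties the libraries to separate animals, and the p-values here cover only the spread from library to library, which may be technical.

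The thick ascending limb takes up sodium, potassium and chloride without water and sheds uromodulin into the urine, and the distal convoluted tubule that follows takes up sodium chloride and magnesium. In the collecting duct, principal cells reabsorb sodium and water under aldosterone and vasopressin, and intercalated cells move acid and base through proton pumps and anion exchangers. The von Hippel-Lindau protein, which Vhlh encodes, marks hypoxia-inducible factors for degradation.

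In the mutant isolates 7 members were called higher and 2 lower among 36 tested. Subunits of the intercalated cell proton pump (Atp6v0d2, Atp6v1g3 and Atp6v0a4) and genes of the distal convoluted tubule (Slc12a3, Trpm6 and Kcnj16) rose, as did the epithelial cadherin Cdh1. Fxyd4, a principal cell regulator of the sodium pump, and the kinase Wnk1 fell. A call is a Benjamini-Hochberg adjusted p under 0.05 in limma, fitted to log2(FPKM + 1) over the 13420 genes whose mean FPKM reached 1, where FPKM is the number of fragments scaled to transcript length and sequencing depth. Higher calls made up 19.4% of the members tested against 8.76% of all genes tested, and lower calls 5.56% against 7.34%. Without Trpm6, which passed the filter only through the mutant group, higher calls made up 17.1% of 35. The median log2 fold change was 0.28 over the members and 0.04 over all genes.

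The counts depended on which libraries were kept. Members called higher numbered 3 without wildtype 1, 2 without wildtype 2 and 4 without wildtype 3. In these fits the higher calls among all genes also fell, from 1176 to 723, 321 and 462. Without mutant 1 to 4, members called higher numbered 5, 8, 7 and 7. The 2 lower calls became 1 without wildtype 3 or mutant 2, 0 without wildtype 1, wildtype 2, mutant 1 or mutant 4, and 6 without mutant 3. Scaling the libraries on 9 general epithelial genes, an alternative chosen after seeing the data, ended all 7 higher calls and the Wnk1 call, and gave 4 principal cell genes called lower. Of the further genes called higher below, Ptger3, Trpv5, Aqp6 and Muc1 kept their calls under that scaling and the other 10 did not. In a bulk isolate fewer cells of a type and less RNA per cell cannot be told apart, and this holds for every value below.

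Some facts of the isolates bear on these values. Relative depth, read from the repeated steps among low values, was 0.71 (wildtype 3) to 1.0 (wildtype 1). All 10 endothelial markers were detected in every library, and 3 of 10 were called higher, 30% against 8.76% of all genes tested. All 10 had a positive log2 fold change, with a median of 0.36. The medians of the thick limb (0.40) and distal convoluted and connecting (0.37) members were near that value. Summed FPKM of these markers was 1708 to 2506 in wildtype and 2494 to 2972 in mutant libraries. Of 12 proximal tubule markers 0 were called (0 at an unadjusted p under 0.05), with sums of 2782 to 5062 and 694.2 to 7479 to which the androgen-regulated Kap, named after its values were seen, gave the greater share in every library except mutant 2. Lrp2, the proximal uptake receptor megalin, was lowest in mutant 3, at 7.97, and 10.3 to 27.7 elsewhere. All 5 macrophage markers were called lower, with sums of 1604 to 2417 against 413.2 to 917.4. Among the podocyte markers Nphs1 and Wt1 had a mean FPKM under 1, while Synpo, a podocyte gene also expressed elsewhere, rose by 1.00 on the log2 scale. The part of these cell types in the results on the members was not tested. Vhl itself was at an FPKM of 7.24 ± 0.861 (SD, n = 3) and 6.00 ± 0.387 (SD, n = 4) and was not called (limma adjusted p = 0.123). Its log2 fold change was -0.23, and every mutant library (5.57 to 6.41) lay below every wildtype library (6.71 to 8.24). The same held for 12.5% of all genes tested. Because the Cre acts in the collecting duct and the isolates mix several cell types, these values do not check the labels.

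Promoters of 4 members are shown first. Aqp2 and Fxyd4, of the principal cells, had the most negative log2 fold changes of all members (-1.22 and -1.03), and Aqp2 was not called. They do not stand for their class, in which 4 of 10 tested members had a positive log2 fold change. Atp6v0a4 and Atp6v1g3 are intercalated cell members that were called higher. Each sequence is from RefSeq on GRCm38.p6, runs 5′ to 3′ on the strand of the gene, and covers 250 bases before to 50 after the start site. Capitals mark exact matches, on either strand, to a forkhead core (GTAAACA), hypoxia-inducible factor cores (ACGTG and GCGTG), a core of the tubule factor HNF1 (GTTAAT) and a GATA site (AGATAA).
Aqp2 (chr15:99578806-99579105, plus strand): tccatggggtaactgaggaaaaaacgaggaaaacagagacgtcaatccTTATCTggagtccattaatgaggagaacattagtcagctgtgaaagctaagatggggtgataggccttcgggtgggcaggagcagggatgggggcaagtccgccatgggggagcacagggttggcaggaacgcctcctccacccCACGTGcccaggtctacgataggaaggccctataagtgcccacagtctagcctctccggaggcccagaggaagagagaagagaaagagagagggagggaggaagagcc
Fxyd4 (chr6:117937286-117937585, minus strand): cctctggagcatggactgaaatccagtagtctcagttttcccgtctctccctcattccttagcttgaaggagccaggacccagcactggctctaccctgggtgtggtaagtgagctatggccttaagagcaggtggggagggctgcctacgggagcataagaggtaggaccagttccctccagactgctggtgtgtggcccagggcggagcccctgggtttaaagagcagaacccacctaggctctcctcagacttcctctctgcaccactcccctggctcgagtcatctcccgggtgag
Atp6v0a4 (chr6:38124537-38124836, minus strand): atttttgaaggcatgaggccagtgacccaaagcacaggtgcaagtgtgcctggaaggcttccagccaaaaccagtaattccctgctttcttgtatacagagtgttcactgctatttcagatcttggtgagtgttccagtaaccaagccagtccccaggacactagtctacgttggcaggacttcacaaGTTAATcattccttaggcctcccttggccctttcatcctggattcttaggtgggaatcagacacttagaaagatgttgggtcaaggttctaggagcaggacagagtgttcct
Atp6v1g3 (chr1:138273488-138273787, plus strand): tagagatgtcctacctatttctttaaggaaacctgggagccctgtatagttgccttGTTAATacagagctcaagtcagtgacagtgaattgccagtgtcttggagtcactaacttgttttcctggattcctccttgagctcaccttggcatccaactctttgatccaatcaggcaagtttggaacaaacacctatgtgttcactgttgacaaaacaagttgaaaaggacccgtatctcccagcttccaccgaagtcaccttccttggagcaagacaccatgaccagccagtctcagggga
The Aqp2 window held a GATA match on the other strand and the palindrome CACGTG, in which ACGTG and its reverse complement overlap. Both intercalated cell windows held the HNF1 core, and the Fxyd4 window held none of the 5 letter strings. Of the members 25 had a promoter in the RefSeq table, 31 promoters in all. The forkhead core was in 4 of the 31 and in 3.65% of all 32851 promoters, and the members with it were Atp6v1b1, Avpr2, Egf and Slc12a1. The HNF1 core was in 4 of 31 against 7.1%, those of Atp6v0a4, Atp6v1g3, Kcnj16 and Umod, so it was not confined to intercalated cell genes. The GATA site was in 5 of 31 against 11.2% of all promoters, those of Aqp2, Atp6v1b1, Kcnj16, Slc12a3 and Slc8a1. ACGTG was in 3 of 31 against 19.6% of all promoters, and GCGTG in 9 of 31 against 32.4%. These are letter matches in short windows and say nothing of binding.

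Umod, which encodes uromodulin of the thick limb, was the most abundant member in all 7 libraries. It was at an FPKM of 1055, 1279 and 1239 in wildtype 1 to 3 and at 1700, 1371, 2179 and 1506 in mutant 1 to 4. In each library that level was above that of Emcn, the most abundant of the 10 endothelial markers, which reached at most 790.3. Slc12a1, the sodium-potassium-chloride cotransporter that loop diuretics block, was at 188, 199 and 174 and at 254, 213, 291 and 236. Both genes were higher in all 4 mutant libraries than in any wildtype library, with mutant 3 the highest. The log2 fold changes of 0.49 (standard error 0.169) for Umod and 0.40 (standard error 0.117) for Slc12a1 were not called (limma adjusted p = 0.0912 and 0.056), and Slc12a1 was called higher without mutant 2 (0.0416) and with array weights (0.0464).

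None of the 5 thick limb genes passed the threshold, and the median log2 fold change was 0.40. At an unadjusted p under 0.05 there were 3 of 5, against 32.4% of all genes tested. Kcnj1, the apical potassium channel that recycles potassium into the lumen, was at 32.1 ± 1.25 (SD, n = 3) and 44.7 ± 10.4 (SD, n = 4) without overlap. Bsnd, the barttin subunit of the basolateral chloride channels, was at 8.98 ± 0.562 and 9.75 ± 2.97. Egf, the epidermal growth factor made in the thick limb and distal convoluted tubule, was at 235 ± 37.4 and 188 ± 63.2, lowest in mutant 2 at 112. An antisense gene, 6330410L21Rik, overlaps exons of Egf and was also lowest in mutant 2, at 12.9 against 20.2 to 29.7 elsewhere. The library kit was stranded, but the strand setting of the counting is not given. Whether reads of this pair were kept apart is therefore unknown. Among 10 tested further genes of this segment 2 rose and 0 fell, at a median of 0.24, with 20% called higher against 8.76% of all genes. Ptger3, a prostaglandin receptor, rose from 10.3 ± 0.0915 to 17.5 ± 2.02 (limma adjusted p = 0.00379), and Cldn16, the claudin of magnesium uptake, from 4.95 ± 0.429 to 7.46 ± 1.00. The Cldn16 call was lost when any wildtype library, mutant 1 or mutant 2 was left out (largest limma adjusted p = 0.0718) and after rescaling to the same total. Cldn10, a claudin of sodium passage between cells, was not called (log2 fold change 0.43) over all libraries but was without mutant 2 (limma adjusted p = 0.0104).

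**Figure D1:**
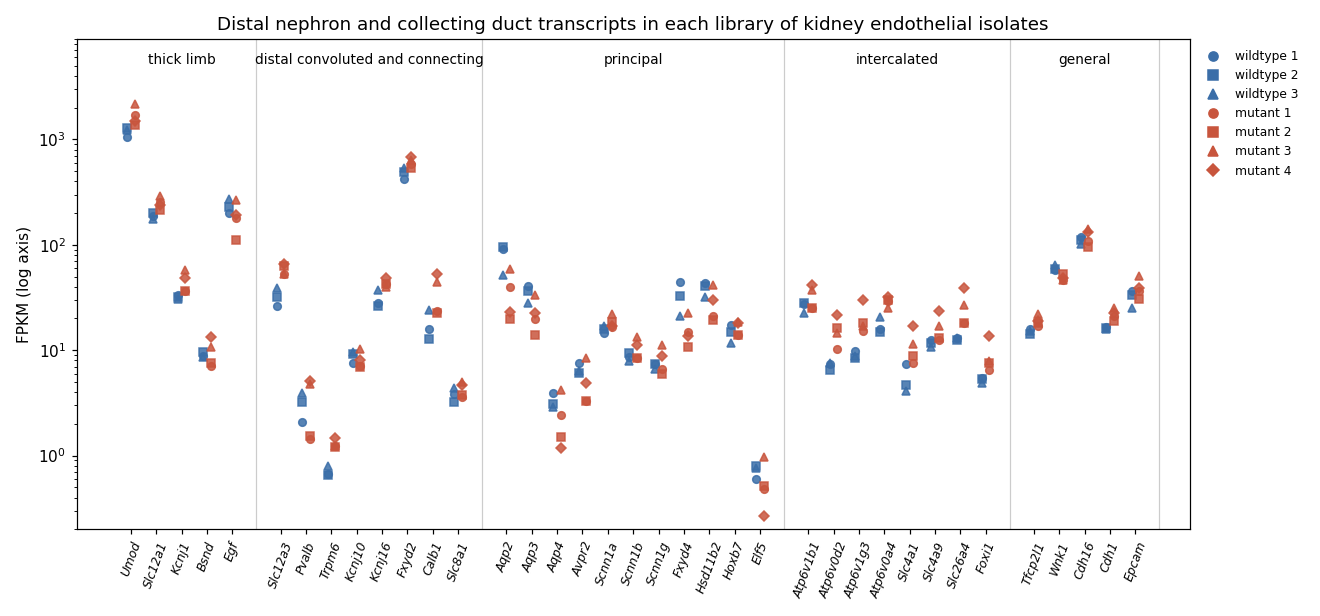
FPKM (log axis) of the 37 members found, by cell class, with 1 point per library (blue wildtype, n = 3; red mutant, n = 4; symbols give the replicate). Umod stands highest at 1055 to 2179, and the red triangle of mutant 3 lies among or above the wildtype points for Aqp2, Aqp3, Aqp4, Avpr2 and Hsd11b2.

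Among the genes of the distal convoluted and connecting tubule 3 of 8 rose and 0 fell, 37.5% called higher against 8.76% of all genes tested. The 3 include Trpm6, so this share rests in part on a gene that passed the filter only through the mutant group. Slc12a3, the thiazide-sensitive sodium chloride cotransporter, was at 26.4, 32.3 and 38.6 in wildtype 1 to 3 and at 52.3, 62.5, 52.6 and 66.1 in mutant 1 to 4. The groups did not overlap, and the log2 fold change was 0.84 (standard error 0.144, limma adjusted p = 0.00855). The call held with each library left out in turn (largest limma adjusted p = 0.0429). Trpm6, the apical magnesium channel, was at 0.675, 0.648 and 0.799 and at 1.24, 1.21, 1.23 and 1.47. It rose by 0.42 on the log2 scale, a size that the added 1 holds down at such levels, since the ratio of the group means was 1.82. Trpm6 passed the filter on low values only through the mutant group, with a mean of 1.04 over all libraries, and without it 6 of 35 members were called higher. Its call was lost without wildtype 1 or wildtype 2 (largest limma adjusted p = 0.0984) and after rescaling to the same total.

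The potassium channel subunits Kcnj10 and Kcnj16 pair in the basolateral membrane of this segment and gave different values. Kcnj16 was at 28.3, 26.5 and 37.4 in wildtype and at 42.5, 42.1, 39.6 and 48.3 in mutant libraries, every mutant library above every wildtype library. It rose by 0.49 on the log2 scale (standard error 0.129, limma adjusted p = 0.0404), a call that ended when any library except wildtype 3 or mutant 3 was left out (largest 0.153). The call was also lost under median-of-ratios scaling, quantile normalization and no filter. Kcnj10 was at 8.78 ± 1.11 (SD, n = 3) and 8.08 ± 1.51 (SD, n = 4), a log2 fold change of -0.11. The difference between the 2 subunits was not tested.

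The other members of the segment were not called over all libraries. Calb1, the calcium-binding protein calbindin of the late distal and connecting tubule, was at 15.9, 12.9 and 24.3 and at 23.6, 22.7, 44.6 and 53.3. Mutant 3 and mutant 4 were high while mutant 1 and mutant 2 lay inside the wildtype range, and the log2 fold change of 0.94 had a standard error of 0.342 (limma adjusted p = 0.104). Calb1 was called higher with array weights (limma adjusted p = 0.035). Pvalb, the parvalbumin of the early distal convoluted tubule, divided the mutants in the same way, with 1.43 and 1.52 in mutant 1 and mutant 2, 4.80 and 5.10 in mutant 3 and mutant 4, and 2.09 to 3.91 in wildtype. Fxyd2, the gamma subunit of the sodium pump, was at 485 ± 56.7 and 609 ± 66.2 and was called higher under quantile normalization (limma adjusted p = 0.0326), and Slc8a1, the sodium-calcium exchanger, at 3.81 ± 0.596 and 4.27 ± 0.704.

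Of 10 further genes of this segment 4 rose and 0 fell (median log2 fold change 0.31), 40% higher against 8.76% of all genes. Trpv5, the apical calcium channel of the late distal and connecting tubule, was at 1.99, 2.38 and 1.80 in wildtype and at 6.51, 7.55, 6.47 and 6.94 in mutant libraries. Here the 4 mutants lay close together and far above wildtype, and Trpv5 rose by 1.37 on the log2 scale (standard error 0.0932, limma adjusted p = 6e-04), called with each library left out in turn. Atp1b1, the beta subunit of the sodium pump that all nephron segments carry, rose by 0.46. Stk39, the kinase that activates Slc12a3, also rose by 0.46. The Atp1b1 call was lost when any library except mutant 2 was left out (largest limma adjusted p = 0.165), and the Stk39 call when any except mutant 3 was (0.143). Both were also lost with no filter and after rescaling to the same total, and that of Atp1b1 under median-of-ratios scaling and quantile normalization. The calcium binder S100g and the kallikrein Klk1, abundant in the connecting tubule, were not called.

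The principal cell genes had the only negative median of the 5 member classes, -0.44 over 10 tested. Of the 10, 1 fell, a share of 10% that is near the 7.34% of all genes called lower, and 4 had a positive log2 fold change. Aqp2, the vasopressin-regulated water channel of the apical membrane, was at an FPKM of 90.9, 95.4 and 52.0 in wildtype 1 to 3 and at 40.0, 19.9, 59.1 and 23.1 in mutant 1 to 4. Mutant 3 was the highest mutant library and lay above wildtype 3, so that the groups overlapped. The log2 fold change of -1.22 (standard error 0.387) was the most negative of all members and was not called (limma adjusted p = 0.0711). Without mutant 3 it was -1.50 (standard error 0.319) and was called (limma adjusted p = 0.0235), as it was with array weights. Fxyd4, also known as the corticosteroid hormone-induced factor, was at 44.1, 33.0 and 21.1 and at 14.9, 10.6, 22.5 and 13.8. It fell by 1.03 on the log2 scale (standard error 0.289, limma adjusted p = 0.0495), with mutant 3 above wildtype 3. The call ended when any library except wildtype 3 or mutant 3 was left out (largest 0.157), with no filter or no trend, and after rescaling to the same total.

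Mutant 3 was also the highest mutant library for Aqp3, Hsd11b2, Aqp4 and Avpr2. Aqp3, the basolateral water channel, was at 41.0, 36.1 and 27.8 in wildtype and at 19.9, 13.9, 33.7 and 22.4 in mutant libraries. Hsd11b2, the enzyme that shields the mineralocorticoid receptor from glucocorticoids, was at 43.8, 40.3 and 31.7 and at 21.2, 19.5, 42.0 and 29.7. In both genes mutant 3 lay inside the wildtype range and the other 3 mutants below it. Aqp4, a second basolateral water channel, was at 4.17 in mutant 3, above the wildtype range of 2.89 to 3.93, and at 1.19 to 2.44 in the other mutants. Avpr2, the vasopressin receptor that raises water permeability, was at 8.34 in mutant 3, above the wildtype range of 6.02 to 7.51, and at 3.30 to 4.88 in the other mutants. All 4 genes were uncalled over all libraries (limma adjusted p = 0.133, 0.225, 0.32 and 0.302 in the order given here). Without mutant 3 they were called lower with Aqp2 and Fxyd4, with log2 fold changes of -0.88, -0.70, -0.68 and -0.67, and with array weights Aqp3 and Hsd11b2 were. The exons of Avpr2 overlap those of Arhgap4 on the opposite strand, which was at 17.8 to 21.8 in wildtype and 6.03 to 8.42 in mutant libraries. The library kit was stranded, but whether counting used strand is not given in the sources used here. It is therefore unknown whether reads of the pair were kept apart.

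The subunits of the epithelial sodium channel had higher means in the mutant group and were not called. Scnn1a was at 15.9 ± 1.30 (SD, n = 3) and 18.6 ± 2.57 (SD, n = 4), Scnn1b at 8.62 ± 0.698 and 10.3 ± 2.35, and Scnn1g at 7.13 ± 0.432 and 8.14 ± 2.39. Their log2 fold changes were 0.21, 0.22 and 0.13 with standard errors of 0.113 to 0.188, and each subunit was highest in mutant 3. The sign for Scnn1g turned negative without mutant 3, at -0.0179. Hoxb7, the homeobox gene whose regulatory sequence drives the Cre, was at 11.7 to 17.5 in wildtype and at 13.8 to 18.7 in mutant libraries, with overlap and a log2 fold change of 0.14. Elf5, a transcription factor of principal cells, had a mean of 0.626 over all libraries and was not tested, with 0.595 to 0.796 in wildtype and 0.268 to 0.968 in mutant libraries.

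Further principal cell genes gave no lower call. Of 10 tested 2 rose and 0 fell, 20% called higher against 8.76% of all genes tested, and the median log2 fold change was 0.04. Sgk1, the aldosterone-induced kinase that is also expressed outside the nephron, was at 198, 179 and 160 and at 325, 332, 288 and 328, a log2 fold change of 0.83 (limma adjusted p = 0.00227). Emx2, a homeobox gene of the ureteric bud, rose by 0.43, a call lost without wildtype 2, wildtype 3, mutant 2 or mutant 4 (largest limma adjusted p = 0.0791), with no filter and after rescaling to the same total. Nedd4l, the ligase that removes the epithelial sodium channel from the membrane, was not called (log2 fold change 0.24). Gata2, which endothelial cells also express, was at 24.1 ± 3.34 and 20.9 ± 4.74. Slc14a2, the urea transporter of the inner medulla, was chosen after its values were seen because it had the largest standard error of the principal cell genes, 0.602. It was at 162, 113 and 42.9 in wildtype and at 82.5, 25.8, 125 and 91.1 in mutant libraries. Like Aqp2 it was lowest in wildtype 3 among the wildtypes, lowest in mutant 2 among the mutants and highest there in mutant 3, and the part of inner medulla in the isolates was not tested.

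The intercalated cell genes had the highest median of the 5 classes, 0.81. Of the 8, 3 rose and 0 fell, 37.5% called higher against 8.76% of all genes tested. All mutant libraries lay above all wildtype libraries in 7 of the 8, 87.5% against 18.9% of all genes tested. Atp6v0d2, the d subunit of the proton pump that intercalated cells use, was at an FPKM of 7.36, 6.52 and 7.51 in wildtype and at 10.3, 16.2, 14.6 and 21.7 in mutant libraries. Atp6v1g3, the kidney form of the G subunit, was at 9.92, 8.50 and 8.81 and at 15.2, 18.1, 17.1 and 30.2. Atp6v0a4, the a subunit whose loss causes distal renal tubular acidosis in humans, was at 15.7, 14.8 and 20.6 and at 29.4, 29.8, 25.2 and 32.3. In each of these 3 genes all mutant libraries lay above all wildtype libraries, with mutant 4 the highest. The log2 fold changes were 1.00 (standard error 0.21), 1.03 (standard error 0.21) and 0.75 (standard error 0.13), with limma adjusted p of 0.0192, 0.0174 and 0.00901. The Atp6v0a4 call held with each library left out in turn (largest limma adjusted p = 0.0467). That of Atp6v0d2 was lost when any wildtype library was left out (largest 0.0863) and that of Atp6v1g3 without wildtype 2 or wildtype 3 (0.0784). Exons of Atp6v0a4 overlap Tmem213 on the opposite strand, at 39.5 to 43.7 in wildtype and 47.8 to 78.9 in mutant libraries. The strand setting of the counting is not given, so it is unknown whether reads of Atp6v0a4 and Tmem213 were kept apart. Atp6v0a4 also overlaps D630045J12Rik on the same strand, at 1.24 to 1.69 in all 7.

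The anion exchangers and the factor Foxi1 were uncalled with groups that did not overlap. Slc26a4, the chloride-bicarbonate exchanger pendrin of type B intercalated cells, was at 13.1, 12.6 and 13.0 and at 18.1, 18.3, 26.6 and 39.1. The wildtype values were nearly equal and the mutant values spread upward, and the log2 fold change of 0.86 (standard error 0.248) just missed the threshold (limma adjusted p = 0.0523). It was called without mutant 2 or mutant 4 (lowest limma adjusted p = 0.04), with a pseudocount of 0.1, with a mean FPKM minimum of 5, with quantile normalization and with array weights. Foxi1, the forkhead factor that switches on the intercalated cell genes, was at 5.44, 5.33 and 4.90 and at 6.48, 7.55, 7.83 and 13.6 (log2 fold change 0.62, limma adjusted p = 0.0877), and was called without mutant 4 (0.035) and with array weights (0.0419). Slc4a9, a second exchanger of type B cells, was at 11.6 ± 0.902 (SD, n = 3) and 16.6 ± 4.99 (SD, n = 4).

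Slc4a1, the basolateral exchanger of type A intercalated cells, is also the band 3 protein of red cells. It was at 7.46, 4.63 and 4.12 in wildtype and at 7.61, 8.82, 11.5 and 16.9 in mutant libraries, with a log2 fold change of 0.91 that was not called (limma adjusted p = 0.0606) except with array weights (0.0356). The summed FPKM of 4 red cell markers was 9.12 to 35.8 in wildtype and 28.7 to 56.9 in mutant libraries, highest in mutant 2, whereas Slc4a1 was highest in mutant 4. Of those markers Alas2, the heme synthesis enzyme of red cell precursors, was at most 0.689. The part of red cells in Slc4a1 was not tested. Atp6v1b1, the pump subunit used in intercalated cells, was the sole intercalated member with overlap, at 26.1 ± 3.13 and 32.3 ± 8.36. Mutant 4 was the highest library for all 8 intercalated members.

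Of 11 further intercalated cell genes 4 rose and 0 fell (median log2 fold change 0.53), 36.4% higher against 8.76% of all genes. Aqp6, an intracellular water channel of these cells, was at 10.2, 6.75 and 6.23 in wildtype and at 16.0, 18.7, 24.3 and 24.4 in mutant libraries, and rose by 1.33 on the log2 scale (standard error 0.197, limma adjusted p = 0.00487), called with each library left out in turn. Oxgr1, the oxoglutarate receptor of type B cells, rose by 0.84, Hepacam2 by 0.65 and P2ry14, a receptor for nucleotide sugars, by 0.61. Each of these 3 calls was lost when any wildtype library was left out and with no filter, and also without mutant 2 or mutant 3 for Oxgr1, mutant 2 for P2ry14 and mutant 1 or mutant 3 for Hepacam2 (largest limma adjusted p = 0.127, 0.13 and 0.14). Those of P2ry14 and Hepacam2 were lost after rescaling to the same total. Hmx2, Dmrt2 and Slc4a8 passed the filter only through the mutant group and were not called.

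Of 13 proton pump subunits that most cells carry 0 rose and 1 fell (median log2 fold change 0.05). The 1 in 13 is 7.69%, near the 7.34% of all genes called lower, and the difference from the intercalated forms was not tested. Atp6v0a1, the widely expressed form of the a subunit, fell by 0.33 on the log2 scale (limma adjusted p = 0.0163), a call lost without wildtype 2 or wildtype 3 (largest 0.0792) and after rescaling to the same total. The other 12 were not called, and Atp6v1a, Atp6v0b and Atp6v1h had log2 fold changes of 0.34, -0.26 and 0.21. With array weights Atp6v1a was called higher and Atp6v0b lower.

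**Figure D2:**
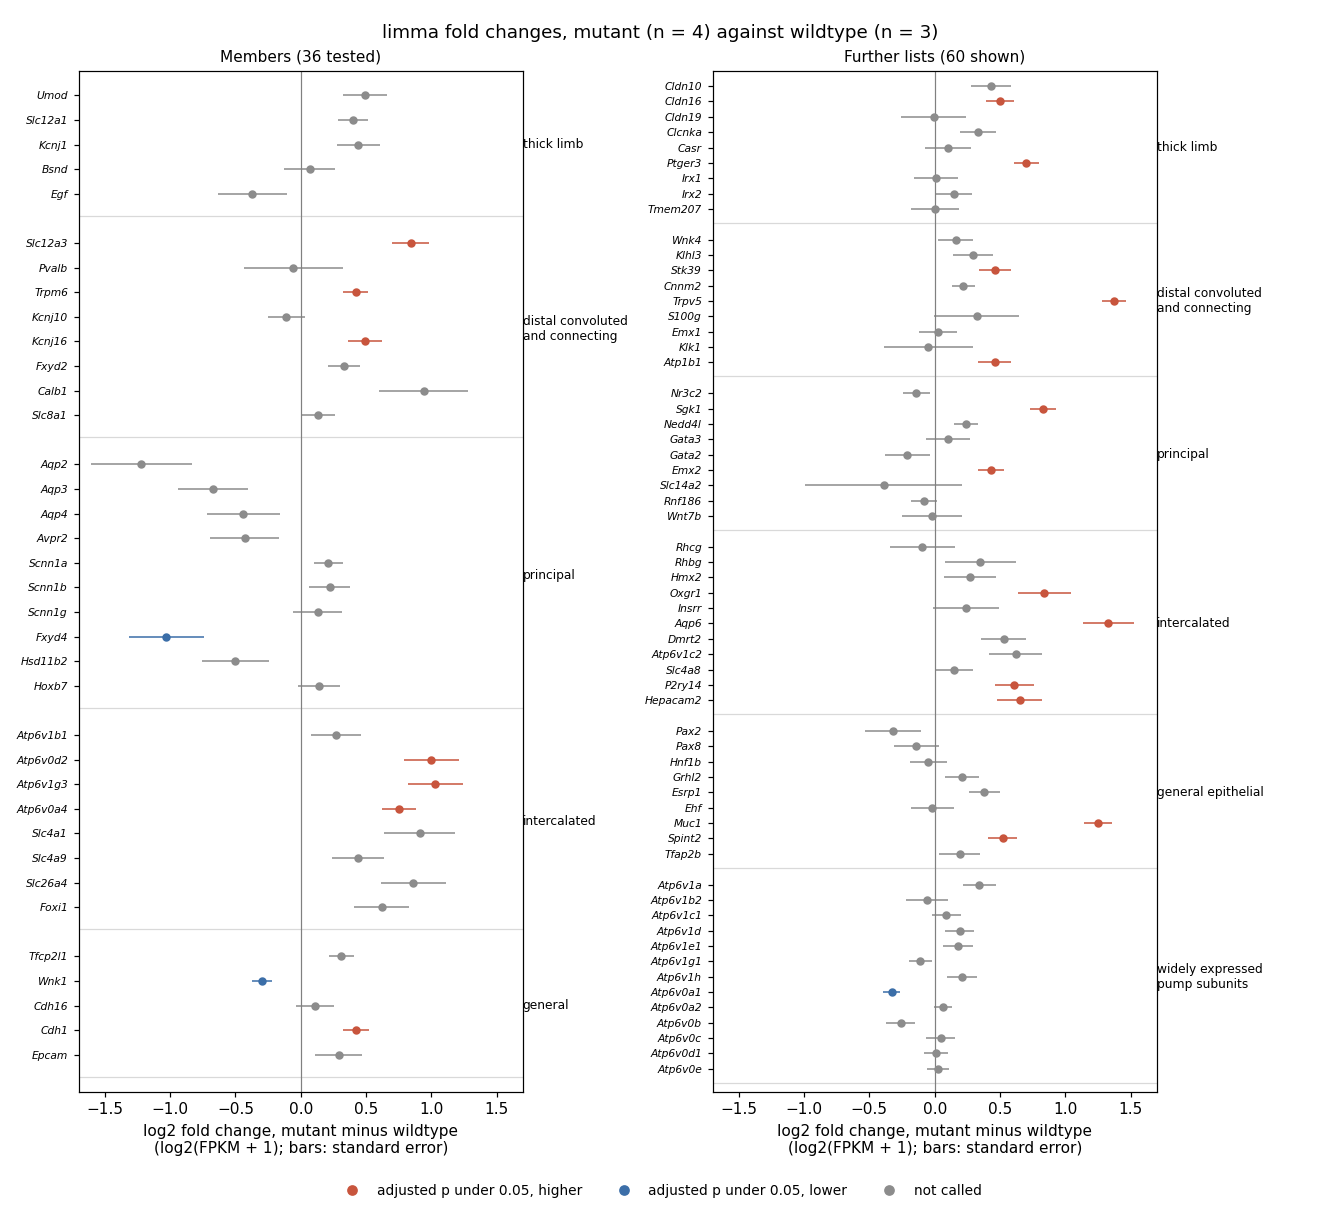
Log2 fold changes, mutant minus wildtype on the log2(FPKM + 1) scale, with standard errors, for the 36 tested members (left) and genes of the further lists (right, 3 tested genes not drawn), coloured by limma call. Among the members, intercalated genes lie at 0.27 to 1.03, and Aqp2 (-1.22), Aqp3, Aqp4 and Fxyd4 lie to the left of 0. In the further lists Aqp6 lies at 1.33 and Rhcg, an ammonia channel, at -0.09.

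Ratios of FPKM within a library do not depend on how libraries were scaled and place the principal and intercalated cell genes side by side. They were formed after the values were seen and carry no test. Aqp2 over Slc26a4 was 6.94, 7.58 and 4.0 in wildtype 1 to 3 and 2.21, 1.09, 2.22 and 0.591 in mutant 1 to 4. Fxyd4 over Atp6v0d2 was 6.00, 5.06 and 2.81 and then 1.45, 0.656, 1.53 and 0.635. In both ratios every mutant library lay below every wildtype library. Aqp2 (log2 fold change -1.22) and Fxyd4 (-1.03) were the most negative members, and Slc26a4 (0.86) and Atp6v0d2 (1.00) were raised. Pairs picked in this way are likely to separate, so the separation adds no support. Principal cell genes with positive fold changes, such as Scnn1a (0.21) and Hoxb7 (0.14), were not set against intercalated genes. Within the proton pump, Atp6v0a4 over Atp6v0a1 was 0.742 to 1.01 in wildtype and 1.60 to 2.01 in mutant libraries, and Atp6v0d2 over Atp6v0d1 was 0.177 to 0.196 and 0.284 to 0.517. Both ratios of an intercalated to a widely expressed subunit were higher in all 4 mutants. Their numerators were genes called higher, so this too follows in part from the choice of pairs. The part of macrophages, whose markers fell, was not tested.

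**Figure D3:**
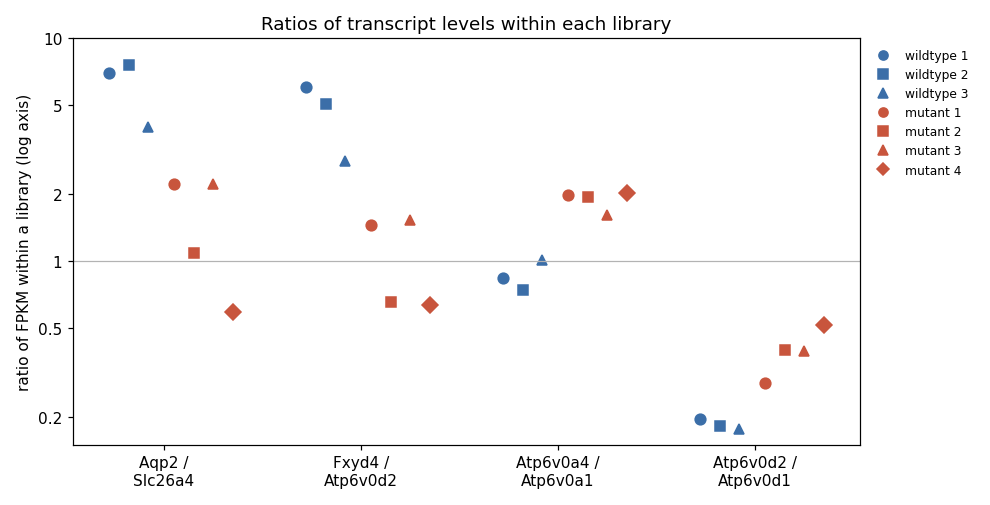
Ratio of 2 FPKM values within each library (log axis), blue for wildtype (n = 3) and red for mutant (n = 4). The Aqp2 to Slc26a4 ratio spans 4.0 to 7.58 in wildtype and 0.591 to 2.22 in mutant libraries. None of the 4 ratios overlaps between groups, and the pairs were chosen after the values were seen.

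Among the members shared by several segments 1 of 5 rose and 1 fell. Each is 20%, against 8.76% of all genes tested called higher and 7.34% lower. Cdh1, the E-cadherin of epithelial junctions, was at 16.5, 16.1 and 15.9 in wildtype and at 21.0, 19.0, 25.2 and 22.7 in mutant libraries, and Wnk1, a kinase that controls Slc12a3 and is expressed in most tissues, at 57.6, 58.7 and 63.7 and at 46.7, 52.3, 46.8 and 48.8. Neither gene overlapped between groups, and the log2 fold changes were 0.42 (standard error 0.0985, limma adjusted p = 0.0283) and -0.30 (standard error 0.0761, limma adjusted p = 0.0371). The Cdh1 call was lost when any wildtype library, mutant 1 or mutant 4 was left out (largest limma adjusted p = 0.107), and the Wnk1 call when any library except mutant 2 was (0.113). Both were lost after rescaling to the same total. Tfcp2l1, a transcription factor of both collecting duct cell types, was at 15.1 ± 0.728 (SD, n = 3) and 19.1 ± 2.23 (SD, n = 4) without overlap and was not called (limma adjusted p = 0.066) except with array weights (0.0262). Cdh16, the kidney-specific cadherin, was at 110.5 ± 9.31 and 120.1 ± 21.0, and Epcam at 31.9 ± 6.02 and 39.2 ± 8.06. Of 9 further epithelial genes 2 rose and 0 fell, 22.2% called higher against 8.76% of all genes tested. Muc1, an apical mucin, rose from 6.47 ± 0.433 to 16.8 ± 2.27 (limma adjusted p = 0.000907) and Spint2, a protease inhibitor, from 45.1 ± 3.59 to 65.1 ± 7.64, a call lost without wildtype 2 or wildtype 3 (0.0736) and after rescaling to the same total. Esrp1 and Grhl2 had log2 fold changes of 0.38 and 0.21 and were not called, though Esrp1 was with array weights.

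Class medians were also taken library by library, as a description with no test. The median difference of the thick limb genes from their wildtype mean was 0.17, 0.18, 0.64 and 0.34 on the log2 scale in mutant 1 to 4, and that of the distal convoluted and connecting genes 0.33, 0.25, 0.39 and 0.57. For the principal cell genes it was -0.54, -0.80, 0.29 and -0.36, and for the intercalated cell genes 0.46, 0.56, 0.70 and 1.36. Mutant 3 was highest for the thick limb and principal classes and mutant 4 for the intercalated class, while wildtype medians lay between -0.20 and 0.21 in all 4 classes. All 4 mutants were above all wildtypes in 15 of the 36 tested members, 41.7% against 18.9% of all genes tested. These included 7 intercalated and 0 principal cell genes. Without Trpm6, which passed the filter only through the mutant group, they were 14 of 35, 40.0%. All 4 mutants were below all wildtypes in 1 member, Wnk1, 2.78% against 12.5%.

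**Figure D4:**
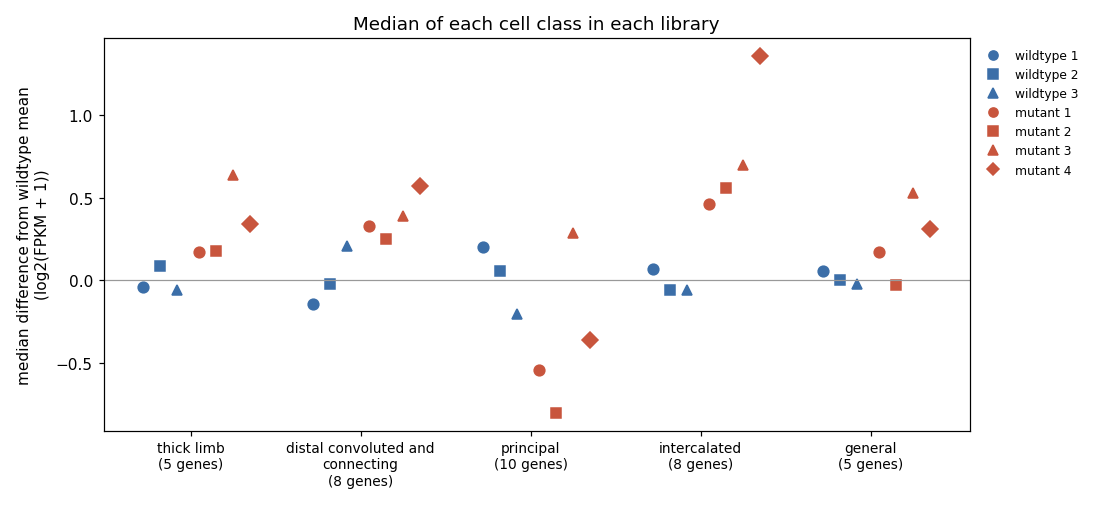
Median over the tested members of each class of the difference from the wildtype mean, on the log2(FPKM + 1) scale, for each library (blue wildtype, n = 3; red mutant, n = 4). The intercalated class lies at 0.46 to 1.36 in the 4 mutants, and the principal class at -0.80 to -0.36 in 3 mutants and at 0.29 in mutant 3.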

How the data were processed

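Libraries of bead-isolated kidney endothelial cells, 3 wildtype and 4 mutant, were grouped by sample title. Per the labels' protocols, a stranded mRNA kit with oligo(dT) selection and paired-end sequencing were used. Tools named, without role or order, in the submitters' processing notes are RSEM 1.2.28, Bowtie2 2.3.4.1 and Trimmomatic 0.39, with the build mm10. Per the file headers the authors deposited FPKM. The annotation and the strand setting of the counting are not stated in those notes. Of 27014 entries, 429 without a gene name (18.35 to 29.26% of FPKM) were left out, and 27 symbols on 2 entries were summed. Low values fell on steps of whole reads for only 33.9 to 37.8% of entries, so counts were not recovered and absolute depth is unknown.

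Genes were tested with limma 3.58.1 in R 4.3.3 (intensity trend, two-sided, Benjamini-Hochberg adjustment over 13420 genes). On simulated data with these spreads 43.3, 86.4 and 98.6% of genes changed 1.5-, 2- and 4-fold were recovered, with 12 false calls of 165. The genes changed (67, 59 and 74) were fewer than the 2161 called in the data. They were drawn only from genes above a minimum wildtype level. The rates therefore do not cover low members such as Trpm6, Pvalb, Aqp4 and Slc8a1. Members and lists were chosen with earlier results of these data known, so counts and medians over them carry no test. Named were all members, Vhl, Gata2, the 4 smallest p of each further list and the first 3 markers of each cell type; any other gene was named after its values were seen. Some genes under this rule are not reported here. Errors beside means are SDs of FPKM. Overlaps of exons are from GENCODE M21.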

Additional observations from a re-analysis of the deposited data

Results flagged for a closer look

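Of 62 genes checked among the 4 mutant libraries, 2 had a library far from the other 3, where chance gives about 1 in 20. Trpm6 was highest in mutant 4, at an FPKM of 1.47 against 1.21 to 1.24 in the other mutants, and all 4 values were above wildtype. Stk39 was highest in mutant 3, at 12.6 against 8.91 to 9.30 in the other mutants.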

How the results depend on the processing

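The sign of the class medians was the same under all 18 alternatives, from -0.68 to -0.32 for principal, 0.59 to 0.87 for intercalated, 0.18 to 0.47 for thick limb, 0.19 to 0.49 for distal convoluted and connecting and 0.07 to 0.35 for shared members. Counts moved more, and the cause was not tested. Of the 9 members called, 8 were called under median-of-ratios scaling, 5 after rescaling to the same total, 2 without wildtype 2 and 1 (Atp6v1g3) with the replicate block. Leaving out 1 library gave 321 to 1205 genes called higher and 521 to 1077 lower, 2 to 8 members higher and 0 to 6 lower, and 5 to 11 further-list genes higher and 0 to 1 lower. Rescaling to the same total gave 576 genes higher, 0 members lower, and 6 further-list genes higher and 0 lower. Array weights gave 2258 genes higher and 1812 lower, 13 members higher and 5 lower, and 3 further-list genes lower, against 2 with quantile normalization. No filter gave 7 further-list genes higher and 1 member lower, and no trend 1 member lower. Higher calls were 54.4% of all calls, 41.7% after rescaling to the same total and 41.6% under median-of-ratios scaling.

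Scaling on the general epithelial list, chosen after seeing the data, moved the median of all genes by -0.19 and 2 genes of that list had themselves risen. It gave 178 genes higher and 1506 lower, 0 members higher and 4 lower (Aqp2, Aqp3, Fxyd4 and Hsd11b2), 4 further-list genes higher, and medians of 0.18 for thick limb, 0.19 for distal convoluted and connecting and 0.07 for shared members.

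Shared replicate numbers did not pair the libraries (correlations of deviations -0.061, 0.026 and -0.281). The replicate block gave 261 genes higher and 423 lower, 2 members higher (Atp6v1g3 and Calb1, which is not among the 9) and 0 lower, and 5 further-list genes higher and 0 lower.

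Small fold changes that turned sign, none of them called, were those of Bsnd (-0.097 with array weights, -0.0896 with the replicate block, -0.136 with epithelial scaling, -0.0896 to 0.188 with 1 library left out), Pvalb (-0.278 to 0.163 with 1 library left out) and Scnn1g (-0.0203 with array weights, -0.0668 with epithelial scaling, -0.0179 to 0.257 with 1 library left out). Others were Hoxb7 (-0.0747 with epithelial scaling, -0.0092 to 0.265 with 1 library left out), Cdh16 (-0.0039 and -0.116 with array weights and epithelial scaling), and, with epithelial scaling, Slc8a1 (-0.0536), Scnn1a (-0.0032) and Atp6v1h (-0.0044). With absolute depth unknown, no error from counting can be given for low members such as Trpm6 and Elf5.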
